A study of Mus musculus with 4 samples.

Results

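Fibroblast growth factors (FGFs) and their receptors were examined in the mesenchymal stromal cells (MSC) of the mouse intestinal lamina propria. The members were a fixed list of 8 of the 28692 genes in the count matrices, 5 ligands (Fgf1, Fgf2, Fgf7, Fgf9 and Fgf10) and 3 receptors (Fgfr1, Fgfr2 and Fgfr3), and all 8 had UMIs in every library. Cells came from untreated female C57BL6/Nrj mice aged 8 to 10 weeks, with 3 pooled mice in each of 2 independent experiments and with Peyer's patches, muscularis externa and epithelium removed. They were sorted as live Itgb1+ cells that lacked CD45, Ter119, CD31, BP3, EpCAM and L1CAM, and small intestine and colon each gave 2 single-cell libraries, so that all 4 groups of cells share the strain, the age and the sort.

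FGFs of the FGF7 group (Fgf7 and Fgf10) are secreted by mesenchyme and act mainly on an epithelial splice form of Fgfr2, whereas Fgf9 acts mainly on mesenchymal receptor forms and Fgf1 binds all of the receptors. Fgf2 lacks a classical secretion signal and is known as a growth factor of fibroblasts. Signalling needs heparan sulfate carried by syndecans and glypicans, and it switches on its own inhibitors, among them the Sprouty genes and Dusp6. UMIs were counted per gene, so the epithelial and mesenchymal forms of Fgfr2 were not told apart.

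The 4 libraries held 2061 and 16795 barcodes for small intestine 1 and 2, and 2590 and 13537 for colon 1 and 2, with 14341443 to 52269372 UMIs. After filters and removal of doublets 30697 cells were left, with a median of 6950 and 2735 UMIs per cell in small intestine 1 and 2 and of 8810 and 3881 in colon 1 and 2. The first replicate of each intestine was thus deeper per cell and smaller than the second. Small intestine 2 and colon 2 shared 69 cell barcodes and small intestine 1 and colon 1 shared 8. Cells were assigned by marker genes, none of them an FGF gene, to PDGFRα-hi fibroblasts (FB), CD81+ FB, remaining FB (the FB with Adamdec1, Cxcl14, Igfbp5 or Thy1 as leading markers), smooth muscle cells (SMC) and pericytes, which together took 19019 cells or 62.0%, and 34.2% of cells were FB between the gates. The PDGFRα-hi and CD81+ markers separated the FB classes: the 7 PDGFRα-hi markers summed to 2907 to 3932 CPM in PDGFRα-hi FB and to 246 to 518 CPM in the other FB classes, and the 6 CD81+ markers to 2418 to 2731 CPM in CD81+ FB and to at most 250.5 CPM in the other FB classes. The 7 remaining-FB markers did not separate all of them, since they summed to 5743 to 9299 CPM in remaining FB and to 4638 to 6897 CPM in PDGFRα-hi FB, ranges that overlap, and to 646 to 1658 CPM in CD81+ FB. The gates held 147 to 4658 cells per FB class and library, 61 to 734 SMC and 53 to 108 pericytes, and only 52.8% of the pericytes of small intestine 2 lay in a pericyte cluster. Levels are given as UMIs of a gene scaled to 1000000 UMIs of all cells of a class in a library (CPM), followed by mean ± SD over the 2 libraries.

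**Figure D1:**
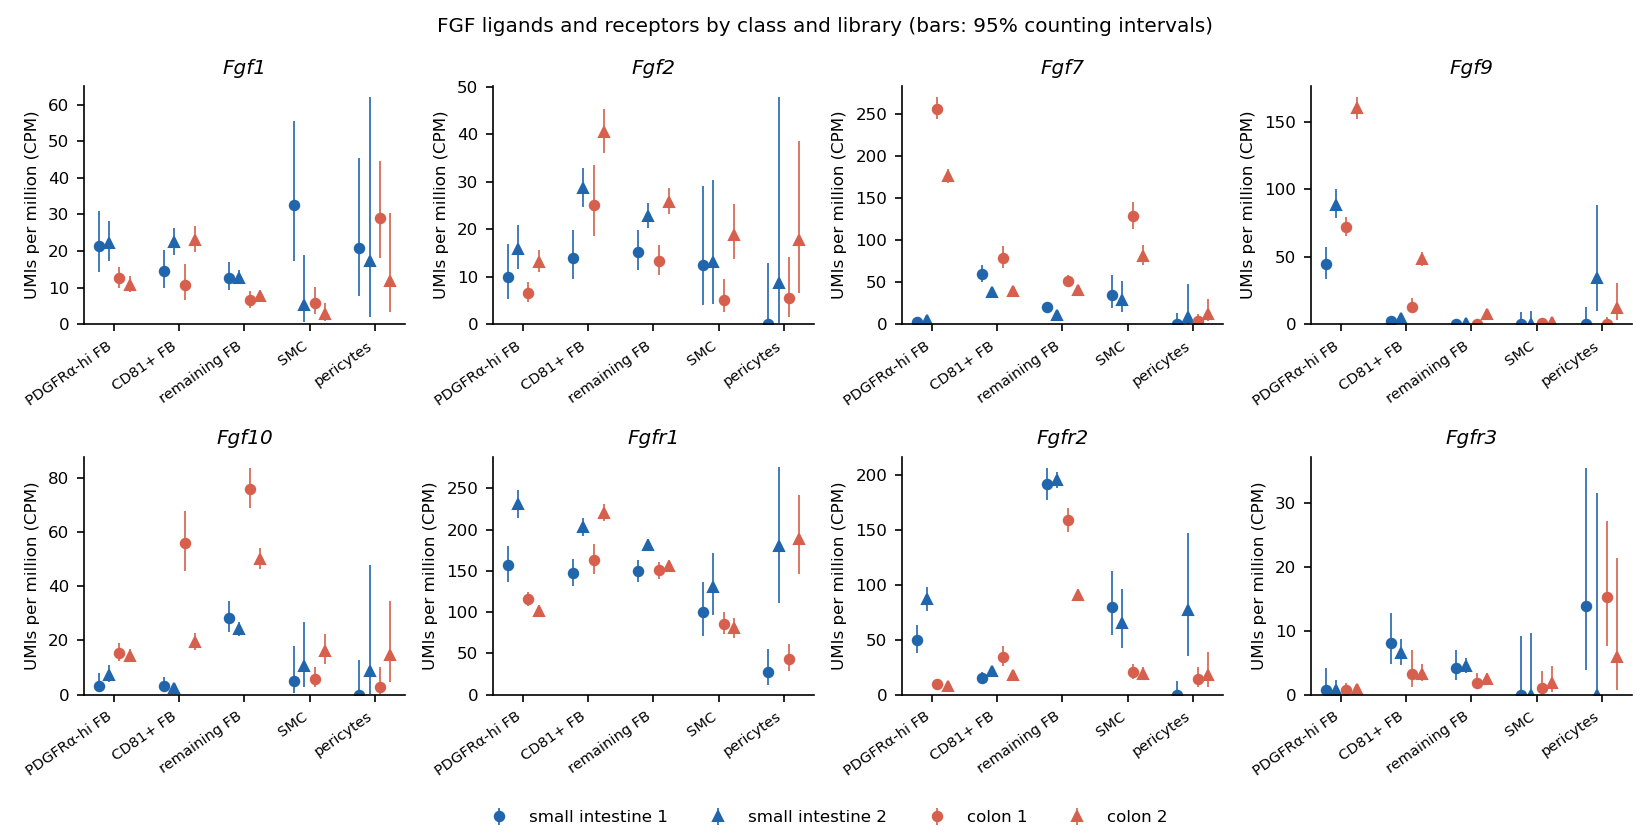
Level of each FGF gene (CPM, linear axis starting at 0) in the 5 gated classes; each point is 1 library, blue for small intestine and red for colon, circles are replicate 1 and triangles replicate 2, and bars are 95% counting intervals. Fgf7 in PDGFRα-hi FB was 257 and 177 CPM in the colon libraries and 3.05 and 4.59 CPM in the small intestinal ones, Fgf9 was highest in PDGFRα-hi FB and Fgfr2 in remaining FB.

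Fgf7, the keratinocyte growth factor, showed the widest gap between the intestines. In PDGFRα-hi FB, the FB that lie beneath the epithelium, it had 4 and 14 UMIs in the small intestinal libraries 1 and 2, or 3.05 and 4.59 CPM (3.82 ± 1.09, SD, n = 2). In colonic PDGFRα-hi FB it had 1502 and 1784 UMIs, or 257 and 177 CPM (217 ± 56.6, SD, n = 2). The libraries of the 2 intestines did not overlap, and the colonic level was 84.3-fold the small intestinal one in the first replicates and 38.5-fold in the second. The fitted difference was 5.85 on the log2 scale (SE 0.40, adjusted p = 0.0266, edgeR's quasi-likelihood test over 11570 genes). Fgf7 was the 1 of 7 tested members that passed the limits of the study for this comparison, a log2 fold change past 1.5 either way at an adjusted p under 0.05, where 1.22% of all tested genes passed. The call was lost without small intestine 1 (log2 fold change 5.64) and without small intestine 2 (6.26), fits in which no gene passed.

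The promoters of Fgf7 and of Fgfr2 are shown. With the marker gate and the main fit these members gave the largest differences between the intestines in PDGFRα-hi FB, in opposite directions. The Fgfr2 difference did not pass and rested on the gate, as given below. Sequences are from RefSeq on GRCm38.p6, the build of the files (mm10), and run from 250 bases before to 50 bases after the annotated start. RefSeq promoters were found for 6 of the 8 members. Capitals mark motif matches on either strand.
Fgf7 (chr2:126034408-126034707, + strand): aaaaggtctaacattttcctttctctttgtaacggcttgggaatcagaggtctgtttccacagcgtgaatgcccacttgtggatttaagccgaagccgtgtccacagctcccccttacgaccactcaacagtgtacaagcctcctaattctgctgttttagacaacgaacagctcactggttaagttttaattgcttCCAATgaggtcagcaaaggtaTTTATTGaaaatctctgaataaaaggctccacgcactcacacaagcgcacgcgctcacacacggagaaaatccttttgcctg
Fgfr2 (chr7:130266759-130267058, - strand): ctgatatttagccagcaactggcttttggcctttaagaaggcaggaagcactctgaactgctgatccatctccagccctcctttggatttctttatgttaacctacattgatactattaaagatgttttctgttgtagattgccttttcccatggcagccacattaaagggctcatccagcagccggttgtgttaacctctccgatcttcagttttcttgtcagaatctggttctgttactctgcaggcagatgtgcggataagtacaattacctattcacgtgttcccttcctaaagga
The Fgf7 window holds 1 CCAAT box (CCAAT), which begins 53 bases before the start, and 1 match to TTTATNG, a core bound by caudal and posterior HOX factors, which begins 32 bases before it. Of 32851 mouse promoters of this length, 37.4% hold CCAAT and 10.9% hold TTTATNG, and the 2 matches in the Fgf7 window do not overlap. The Fgfr2 window holds neither. No match was found in either window to a TATA box (TATAAA, in 13.6% of promoters), to a GC box (GGGCGG, in 35.7%), to a forkhead core (TGTTTAC, in 3.65%) or to a GLI site (TGGGTGGTC, in 0.253%). In the annotation the protein-coding Fgf7 gene spans 126034658 to 126091185 on chromosome 2, and Fgfr2 spans 130162451 to 133123350 on chromosome 7, so that the RefSeq start of Fgfr2 lies inside its annotated span.

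In the other classes Fgf7 differed less between the intestines. In CD81+ FB, most of which lie near vessels in or next to the submucosa, it was at 59.9 and 37.7 CPM in the small intestinal libraries and at 79.3 and 39.8 CPM in colon, ranges that overlap (log2 difference 0.10, SE 0.43). In remaining FB it was at 20.5 and 11.4 CPM in the small intestinal libraries and at 51.8 and 40.3 CPM in colon. The groups did not overlap, and the log2 difference of 1.54 (SE 0.36) did not pass (adjusted p = 0.211, edgeR). In SMC it was at 34.98 and 28.7 CPM in the small intestinal libraries and at 129 and 81.2 CPM in colon, again without overlap, and the log2 difference of 1.73 (SE 0.40) did not pass (adjusted p = 0.165, edgeR). The small intestinal SMC carried more of the remaining-FB markers than the colonic SMC (values are given with Fgfr2 below). The part of those markers in the Fgf7 levels of SMC was not tested.

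The difference of Fgf7 between the intestines was itself larger in PDGFRα-hi FB than in the other FB. The class by intestine term was 4.12 on the log2 scale against remaining FB (SE 0.30, adjusted p = 2.53e-07, edgeR) and 5.64 against CD81+ FB (SE 0.33, adjusted p = 8.12e-08, edgeR), and both were called in each of the 11 alternatives run. These terms called 3 of 8 members against remaining FB (7.04% of genes passed) and 3 of 8 against CD81+ FB (7.57% passed). The place of PDGFRα-hi FB in the order of the FB classes turned with the intestine: with the 2 small intestinal libraries alone Fgf7 was lower in PDGFRα-hi FB than in the other FB classes (log2 difference -2.93, SE 0.28, adjusted p = 6.59e-06, edgeR), and with the colonic libraries alone it was higher (1.93, SE 0.11, adjusted p = 1.32e-07, edgeR).

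The share of Fgf7 UMIs by class shows the same turn, although it depends on how many cells each gate caught. Of the Fgf7 UMIs in the 5 classes, PDGFRα-hi FB held 1.79% and 3.29% in the small intestinal libraries and 68.8% and 63.5% in colon. CD81+ FB held 59.4% and 58.5% in the small intestinal libraries and 6.78% and 10.5% in colon. Among PDGFRα-hi FB, 2.04% and 1.08% of small intestinal cells and 30.1% and 23.0% of colonic cells had an Fgf7 UMI. With each cell thinned to 1000 UMIs the shares were 0% and 0.309% in the small intestinal libraries, where 0 of 147 cells allows up to 2.04%, and 11.4% and 10.8% in colon. As a background, 0 of 279 endothelial cells of small intestine 1 (median 4561 UMIs, against 9422 in its PDGFRα-hi FB) and 0 of 229 of colon 1 (5044 against 10590) had an Fgf7 UMI, which allows up to 1.08% and 1.31%. In colon 2 it was 1 of 24 endothelial cells (4.17%, median 5689 against 4064 UMIs). The colonic PDGFRα-hi shares lay above the endothelial ones of their own library, although the endothelial cells of colon 1 were the shallower ones. The small intestinal shares were not set against this background. In small intestine 1 the share of 2.04% was close to the 1.08% that its shallower endothelial cells allow, and small intestine 2 had 1 such cell.

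**Figure D2:**
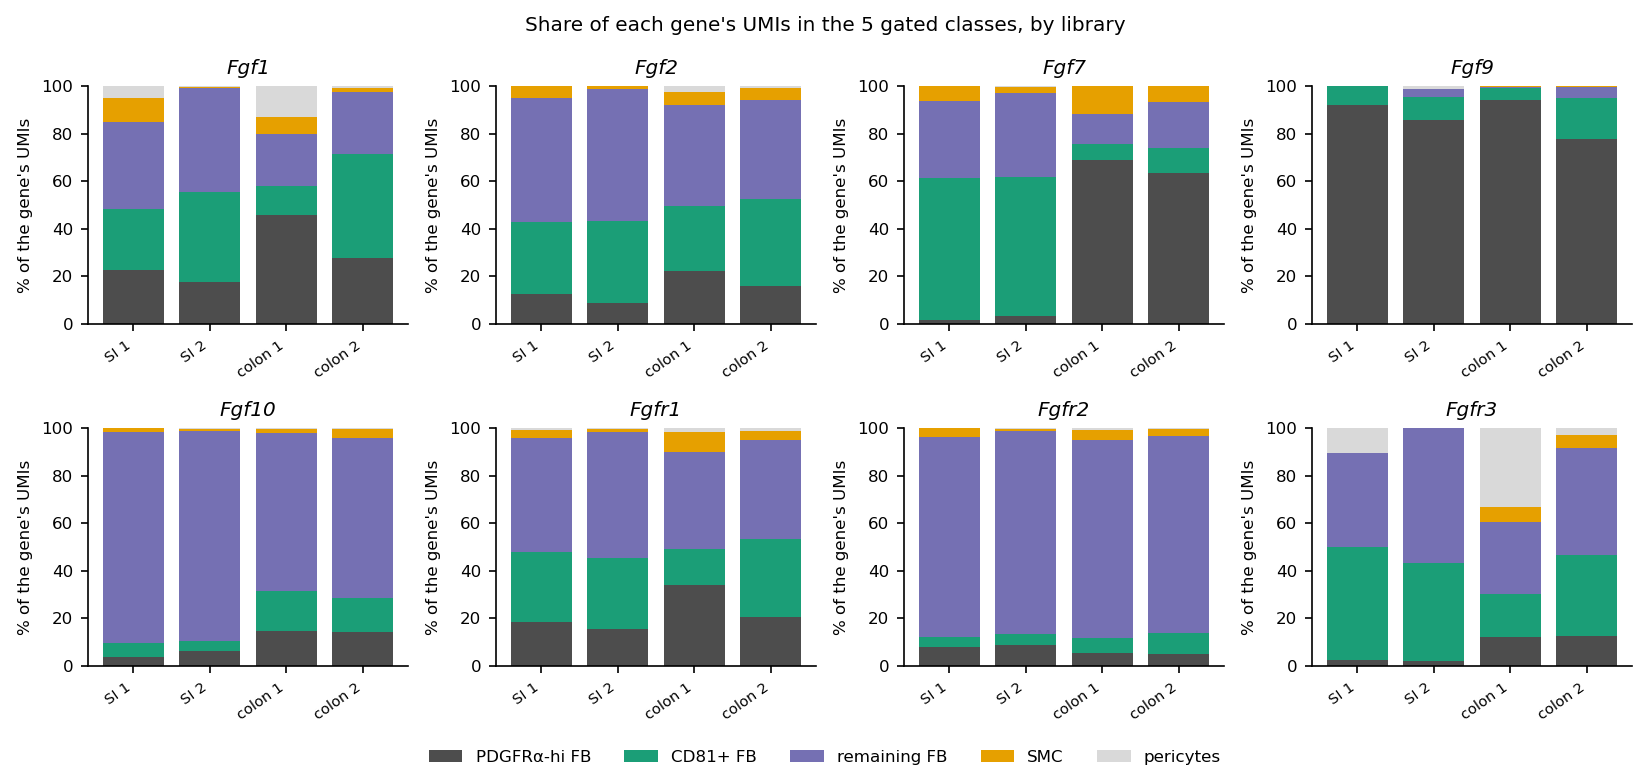
Share of each gene's UMIs that fell in each of the 5 gated classes (percent of the gene's UMIs in these classes, stacked to 100), 1 bar per library. PDGFRα-hi FB (dark grey) held 1.79% and 3.29% of Fgf7 UMIs in the small intestinal libraries and 68.8% and 63.5% in colon, and remaining FB (purple) held 82.8% to 85.4% of Fgfr2 UMIs in all 4 libraries.

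Within colonic PDGFRα-hi FB, Fgf7 lay in the cells with Cd9. The study divides these cells by CD9 and CD141 (the gene Thbd) after clustering them. It already reports Fgf7 among the genes highest in its Cd9-high cluster without CD141. The values here are thus a description of the same cells, and no test is given. Cells with a Cd9 UMI and no Thbd UMI numbered 78 in colon 1 and 832 in colon 2, and they held Fgf7 at 1094 and 391 CPM. Cells with Thbd and without Cd9 numbered 44 and 405, and they held 0 Fgf7 UMIs in colon 1 and 12 UMIs (8.97 CPM) in colon 2. In colon 1 the level was at least 123-fold higher with Cd9, set against a floor of 3 UMIs in the Thbd cells of that library, and in colon 2 it was 43.6-fold higher. The Cd9 cells were the deeper ones, with a median of 13210 against 8618 UMIs in colon 1 and of 4726 against 3219 in colon 2. The same split of small intestinal PDGFRα-hi FB, added after the colonic values were seen, gave 1 Fgf7 UMI in 138 Cd9 cells and 5 in 582 Thbd cells of small intestine 2, and small intestine 1 had only 3 Cd9 cells.

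Other members differed between the same colonic cells. Fgf1 was at 22.2 and 15.3 CPM with Cd9 and at 5.91 and 1.496 CPM with Thbd. Fgf10 went the other way, at 4.05 and 5.003 CPM with Cd9 and at 23.7 and 16.5 CPM with Thbd, and so did Fgfr1, at 75.8 and 76.8 CPM with Cd9 and at 163 and 132 CPM with Thbd. Fgfr2 was at 1.01 and 2.75 CPM with Cd9, on 1 and 11 UMIs, and at 14.8 and 12.7 CPM with Thbd. Fgf9 was at 72.8 and 144 CPM with Cd9 and at 76.9 and 224 CPM with Thbd, a fitted log2 difference of -0.38 (SE 0.17).

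**Figure D3:**
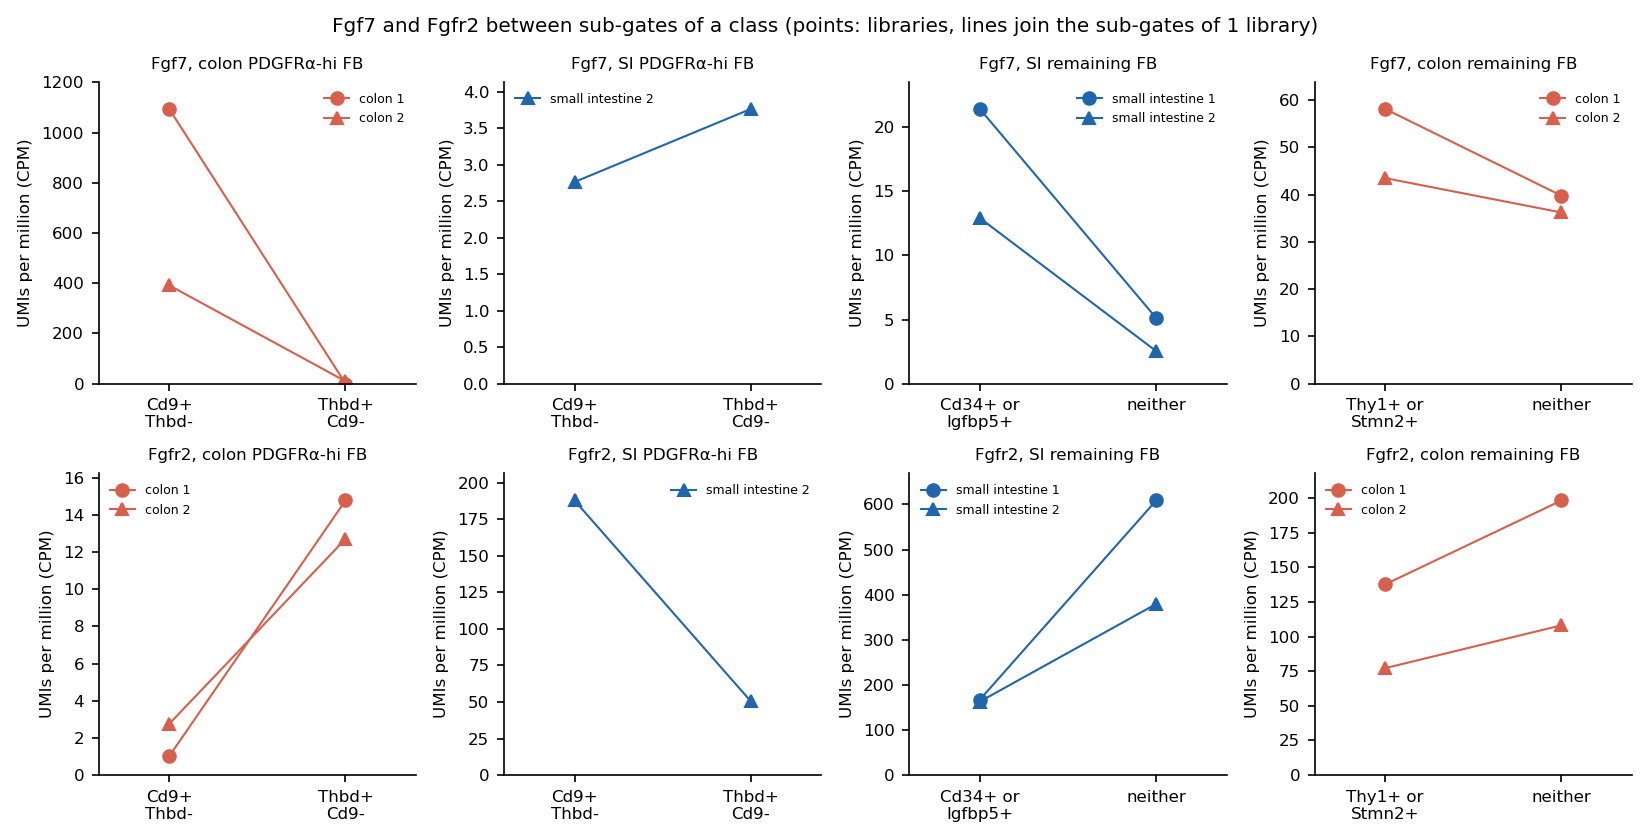
Levels of Fgf7 (top) and Fgfr2 (bottom) in CPM between sub-gates of 1 class (linear axes starting at 0, scaled per panel); points are libraries and lines join the sub-gates of 1 library, and a library with under 20 cells on either side is left out. Colonic PDGFRα-hi FB with Cd9 held Fgf7 at 1094 and 391 CPM and those with Thbd at 0 and 8.97 CPM, and small intestinal remaining FB with neither Cd34 nor Igfbp5 held Fgfr2 at 609 and 379 CPM.

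In the remaining FB, Fgf7 was also unevenly spread in small intestine. Cells with Cd34 or Igfbp5, the markers of the small intestinal Igfbp5+ FB of the study, held it at 21.4 and 12.9 CPM, and cells with neither held it at 5.12 and 2.53 CPM, the first on 1 UMI. In colon the cells with Thy1 (CD90) or Stmn2 held it at 58.2 and 43.5 CPM and those with neither at 39.8 and 36.2 CPM. These splits also follow the study's clusters, and they carry no test here.

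Fgf10, the second mesenchymal ligand of epithelial Fgfr2, was highest in remaining FB, where Fgf7 was not the highest in any library. In remaining FB it was at 28.4 and 24.0 CPM in the small intestinal libraries (26.2 ± 3.11, SD, n = 2) and at 75.9 and 50.05 CPM in colon (63.0 ± 18.3, SD, n = 2). In PDGFRα-hi FB it was at 3.05 and 7.22 CPM in the small intestinal libraries and at 15.4 and 14.2 CPM in colon. Among the 5 classes its level was highest in remaining FB in every library, and these held 66.5% to 88.6% of its UMIs. Some cells had UMIs of both ligands. Of the remaining FB with an Fgf7 UMI, 25.0%, 6.08%, 44.6% and 16.4% also had an Fgf10 UMI in small intestine 1 and 2 and colon 1 and 2, against 19.3%, 6.36%, 41.6% and 17.5% of those without one. The share was higher with Fgf7 in the first replicates and lower in the second. The cells with Fgf7 were the deeper ones in each library, and no test was made over cells. Against the mean of the other 2 FB classes Fgf10 was higher in remaining FB by 1.91 on the log2 scale (SE 0.37, adjusted p = 0.0197, edgeR with library as a term), a call lost without small intestine 1 and without colon 2, with adjusted p up to 0.107. It was lower in PDGFRα-hi FB by the same test (log2 difference -1.59, SE 0.44, adjusted p = 0.0245, edgeR), a call lost in 5 of 13 alternatives.

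Fgf10 was higher in the colonic than in the small intestinal libraries in all 3 FB classes, and in no class did the difference pass. CD81+ FB showed the widest gap, with 7 and 16 UMIs or 3.15 and 2.42 CPM in the small intestinal libraries and 104 and 144 UMIs or 55.8 and 19.4 CPM in colon. The groups did not overlap, the colonic level was 17.7-fold and 7.98-fold the small intestinal one in the first and second replicates, and the fitted log2 difference of 3.59 (SE 0.62) had an adjusted p of 0.109 by edgeR, which passed in 6 of 13 alternatives. Colonic CD81+ FB of the first library had remaining-FB markers at 1658 CPM against 646 to 1009 CPM in the other CD81+ sums, only 70.0% of them lay in a CD81+ cluster, and with clusters in place of the gate its Fgf10 level was 18.6 CPM. The log2 differences were 1.25 (SE 0.28, adjusted p = 0.192) in remaining FB and 1.54 (SE 0.47, adjusted p = 0.274) in PDGFRα-hi FB by edgeR. With clusters in place of the gate small intestinal PDGFRα-hi FB held 0 Fgf10 UMIs in both libraries and colonic ones 93 and 188 UMIs, the 1 alternative of 13 in which Fgf10 passed in this class.

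Fgf9, a ligand that in the gut is known from mesothelium, epithelium and mesenchyme of the embryo, was found mostly in PDGFRα-hi FB. In these cells it was at 44.2 and 88.6 CPM in the small intestinal libraries (66.4 ± 31.4, SD, n = 2) and at 72.0 and 159.9 CPM in colon (116 ± 62.2, SD, n = 2). In remaining FB it had 0 and 10 UMIs in the small intestinal libraries and 2 and 98 UMIs in colon, which is 0 to 7.29 CPM. PDGFRα-hi FB held 77.8% to 94.0% of its UMIs in the 5 classes, and within each library its level there was above that of the other FB classes. The difference from the mean of the other FB classes was 4.12 on the log2 scale in PDGFRα-hi FB (SE 0.40, adjusted p = 1.64e-04, edgeR) and -4.28 in remaining FB (SE 0.52, adjusted p = 0.00286, edgeR), and both were called in all 13 alternatives.

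Between the intestines Fgf9 in PDGFRα-hi FB overlapped, since small intestine 2 lay above colon 1 (log2 difference 0.93, SE 0.56, adjusted p = 0.718, edgeR). The level was higher in the second replicate of each intestine, and within the same replicate number colon was 1.63-fold and 1.81-fold the small intestine. In CD81+ FB Fgf9 was at 2.25 and 4.70 CPM in the small intestinal libraries and at 12.9 and 48.0 CPM in colon. The log2 difference there was 2.94 (SE 0.71) and did not pass (adjusted p = 0.226, edgeR), and the term for the difference between the classes was -2.06 (SE 0.31, adjusted p = 4.88e-04, edgeR). That call was lost without small intestine 2 (log2 difference -2.01) and without colon 2 (-1.57), with adjusted p up to 0.0801.

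Fgf1 and Fgf2 were low in all classes. Fgf2 was at 14.0 and 28.6 CPM in small intestinal and at 25.2 and 40.4 CPM in colonic CD81+ FB, against 9.90, 15.7, 6.50 and 13.2 CPM in PDGFRα-hi FB in the same order of libraries. In each library CD81+ FB lay above PDGFRα-hi FB, and in 3 of 4 libraries they lay above remaining FB (15.2, 22.8, 13.3 and 25.8 CPM). Against the other FB classes Fgf2 was higher in CD81+ FB by 1.12 (SE 0.14, adjusted p = 1.55e-04) and lower in PDGFRα-hi FB by -1.31 on the log2 scale (SE 0.15, adjusted p = 7.74e-05, edgeR), both called in all 13 alternatives. Fgf1 was at 14.4, 22.4, 10.7 and 23.1 CPM in CD81+ FB of small intestine 1 and 2 and colon 1 and 2. In the same order it was at 21.3, 22.3, 12.5 and 10.8 CPM in PDGFRα-hi FB and at 12.7, 12.7, 6.48 and 7.59 CPM in remaining FB, the lowest of the 3 classes in every library. Whether CD81+ or PDGFRα-hi FB were the highest differed between libraries. It was higher in CD81+ FB by 0.83 (SE 0.18, adjusted p = 0.00583) and lower in remaining FB by -0.84 on the log2 scale (SE 0.18, adjusted p = 0.0175, edgeR). The second call was lost without small intestine 2 and without colon 1.

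Within CD81+ FB, the level of Fgf1 was higher in the cells with Pi16. CD81+ FB with Pi16 and without Ackr4, an atypical chemokine receptor, held Fgf1 at 47.6 and 54.1 CPM in the small intestinal libraries and at 22.2 and 48.6 CPM in colon. Those with Ackr4 and without Pi16 held it at 8.89 and 14.9 CPM in the small intestinal libraries and at 3.68 and 7.38 CPM in colon. The Pi16 cells were higher in all 4 libraries, on 7, 36, 5 and 116 UMIs in 15, 216, 35 and 572 cells, of 32, 148, 20 and 172 Fgf1 UMIs in all CD81+ FB. In the small intestinal libraries the Ackr4 cells, at 11 and 49 UMIs, held more of them, and the fitted log2 difference was -2.16 with Ackr4 (SE 0.25). Fgf1 and Fgf2 did not pass between the intestines in any class in which they were tested, with log2 differences from -0.85 (Fgf1 in remaining FB, SE 0.26) to 0.48 (Fgf2 in CD81+ FB, SE 0.42). Under the low-count filter Fgf1 was not tested in SMC and pericytes, nor Fgf2 in pericytes. In SMC Fgf1 was at 32.5 and 5.23 CPM in the small intestinal libraries and at 5.64 and 2.64 CPM in colon, on 13, 2, 11 and 6 UMIs.

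Among the receptors, Fgfr1 was spread over the whole stroma. In FB it ranged from 102 CPM (PDGFRα-hi FB of colon 2) to 231 CPM (PDGFRα-hi FB of small intestine 2), in SMC from 80.4 to 131 CPM, and in pericytes from 27.8 to 189 CPM. The order of the FB classes differed between the intestines: on the plain CPM scale PDGFRα-hi FB were the highest in both small intestinal libraries, at 158 and 231 CPM, and the lowest in both colonic ones, at 116 and 102 CPM. The scaled fit to the small intestine alone put them lower than the other FB classes (log2 difference -0.15, SE 0.11) and did not pass. Over all libraries Fgfr1 was lower in PDGFRα-hi FB by -0.48 (SE 0.13, adjusted p = 0.0159) and higher in CD81+ FB by 0.51 on the log2 scale (SE 0.13, adjusted p = 0.0121, edgeR). The first was lost without colon 1, without colon 2 and with the small intestine alone (log2 differences -0.43, -0.31 and -0.15), and the second without colon 1 (0.52). The class by intestine term against remaining FB was -0.59 (SE 0.15, adjusted p = 0.0255, edgeR), a call lost in 4 of 11 alternatives, among them those without small intestine 2 and without colon 2 (log2 differences -0.42 and -0.48).

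Among the 5 classes Fgfr2 was highest in remaining FB in every library. It was at 191 and 195 CPM in the small intestinal libraries (193 ± 2.59, SD, n = 2) and at 159 and 90.8 CPM in colon (125 ± 48.0, SD, n = 2), and remaining FB held 82.8% to 85.4% of its UMIs. Fgfr2 names a FB cluster of the study that this gate takes in, so its place there is not independent of the study's own choice. The fitted difference from the other FB classes was 2.64 on the log2 scale (SE 0.47, adjusted p = 0.0179, edgeR), and the call was lost without small intestine 1, without colon 1 and without colon 2. In small intestine the level was higher in the cells with neither Cd34 nor Igfbp5, 30 and 797 cells that held Fgfr2 at 609 and 379 CPM, against 167 and 163 CPM in the others. The others held most of the UMIs, 561 and 1840 against 119 and 749. In colon the cells with neither Thy1 nor Stmn2 held it at 198 and 108 CPM and the others at 138 and 77.2 CPM. The cells with neither marker were the shallower ones, with 2461 against 2852 median UMIs in the small intestinal libraries 2 and 3964 against 4568 in colon 2.

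In PDGFRα-hi FB Fgfr2 was lower in the colonic libraries, opposite to Fgf7. It had 65 and 264 UMIs or 49.5 and 86.6 CPM in the small intestinal libraries (68.0 ± 26.2, SD, n = 2) and 56 and 76 UMIs or 9.58 and 7.53 CPM in colon (8.55 ± 1.45, SD, n = 2). The groups did not overlap, and small intestine was 5.17-fold and 11.5-fold the colon in the first and second replicates. The fitted log2 difference of -2.90 (SE 0.40) did not pass (adjusted p = 0.0517, edgeR) and passed in 6 of 13 alternatives. This difference rested on how the cells were chosen: with clusters in place of the gate small intestinal PDGFRα-hi FB held Fgfr2 at 15.0 and 20.1 CPM and colonic ones at 11.1 and 9.33 CPM, a log2 difference of -0.66. The class by intestine terms were -2.21 against remaining FB (SE 0.28, adjusted p = 0.00205) and -3.14 against CD81+ FB (SE 0.30, adjusted p = 4.10e-06, edgeR), and with clusters they were -0.0046 and -0.43 and did not pass. The term against remaining FB was also lost with a stricter gate, with at least 1000 genes per cell and with doublets kept (-1.67, -2.23 and -2.01).

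In SMC Fgfr2 was at 80.0 and 65.3 CPM in the small intestinal libraries and at 20.5 and 18.4 CPM in colon, without overlap (log2 difference -1.88, SE 0.36, adjusted p = 0.0991, edgeR). The 7 markers of remaining FB, which include no FGF gene, summed to 6357 and 6256 CPM in small intestinal SMC and to 1517 and 1241 CPM in colonic SMC, with at most 2 of the 7 at 0 in a library, and their part in the difference was not tested. The 5 SMC markers summed to 8391 and 6130 CPM in small intestinal and to 10412 and 8941 CPM in colonic SMC. In CD81+ FB Fgfr2 was at 14.9 and 21.8 CPM in the small intestinal libraries and at 34.3 and 17.5 CPM in colon, ranges that overlap. None of the 5 members tested in SMC or of the 8 tested in CD81+ FB passed between the intestines, where 0.469% and 0.394% of genes did. Nor did any of the 7 members tested in remaining FB, where 0.572% did. In pericytes 1 member could be tested and no gene passed (136 genes were at an unadjusted p under 0.05 in edgeR, and DESeq2 called 2), and none is read from that class.

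Fgfr3, known from epithelium and cartilage, was near the limit of detection in FB. It was at 0.656 to 0.892 CPM in PDGFRα-hi FB, on 1 to 9 UMIs, at 3.22 to 8.10 CPM in CD81+ FB and at 1.85 to 4.45 CPM in remaining FB. CD81+ FB were the highest of the FB classes in each library (log2 difference 1.76, SE 0.26, adjusted p = 6.06e-04, edgeR) and PDGFRα-hi FB the lowest (-2.31, SE 0.32, adjusted p = 2.76e-04, edgeR), both called in all 13 alternatives. The share of FB with an Fgfr3 UMI was 0.155% to 6.64%, and 5.02% and 4.37% of the endothelial cells of small intestine 1 and colon 1 had one. Of the 6 FB shares in those 2 libraries only that of CD81+ FB of small intestine 1 (6.64%) was above the endothelial share.

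In all, 5 of 8 members passed in PDGFRα-hi FB against the other FB classes, 1 higher and 4 lower, where 37.9% of the 12669 tested genes passed (18.0% higher, 19.9% lower). In CD81+ FB 4 of 8 passed, all higher, beside 30.2% of all genes (16.9% higher, 13.3% lower). In remaining FB 4 of 8 passed, 2 each way, beside 8.34% of all genes (5.53% higher, 2.81% lower). These fits are scaled to the typical gene: on the plain CPM scale the median of 8465 genes differed by 0.24 on the log2 scale in PDGFRα-hi FB and by -0.24 in CD81+ FB from the other FB classes. Each member that passed kept its direction on the CPM scale, where the differences of Fgfr1 were -0.24 in PDGFRα-hi FB and 0.26 in CD81+ FB.

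**Figure D4:**
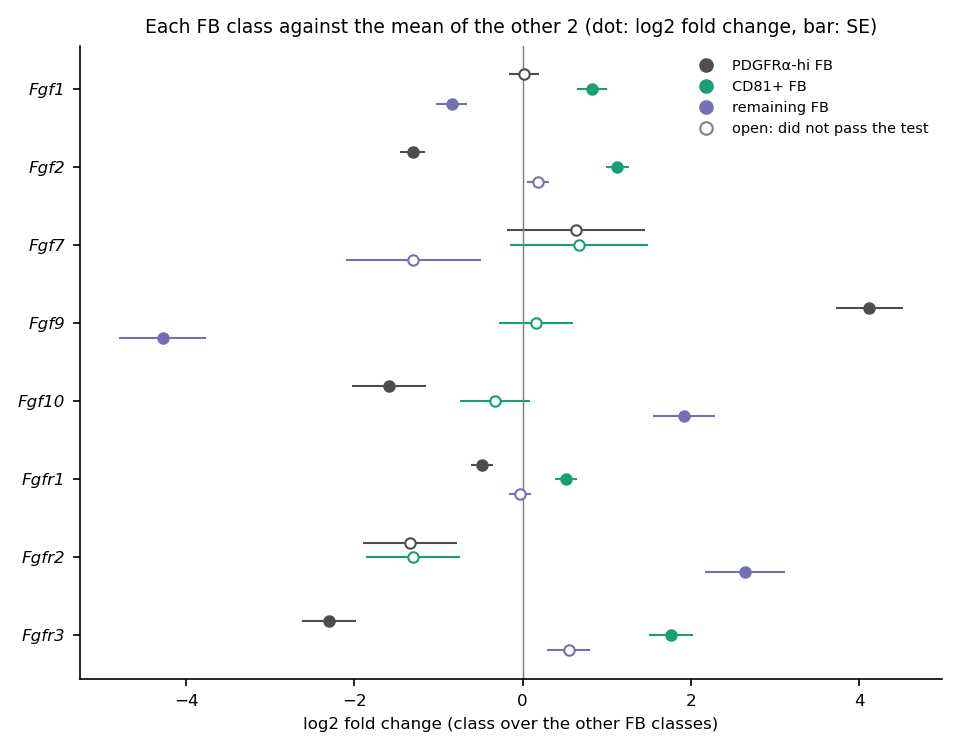
Log2 difference of each FGF gene between 1 FB class and the mean of the other 2 over the 4 libraries (dots; bars are SE), filled where the adjusted p was under 0.05. The highest filled dot was Fgf9 in PDGFRα-hi FB (4.12), Fgfr3 in CD81+ FB (1.76) and Fgfr2 in remaining FB (2.64).

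**Figure D5:**
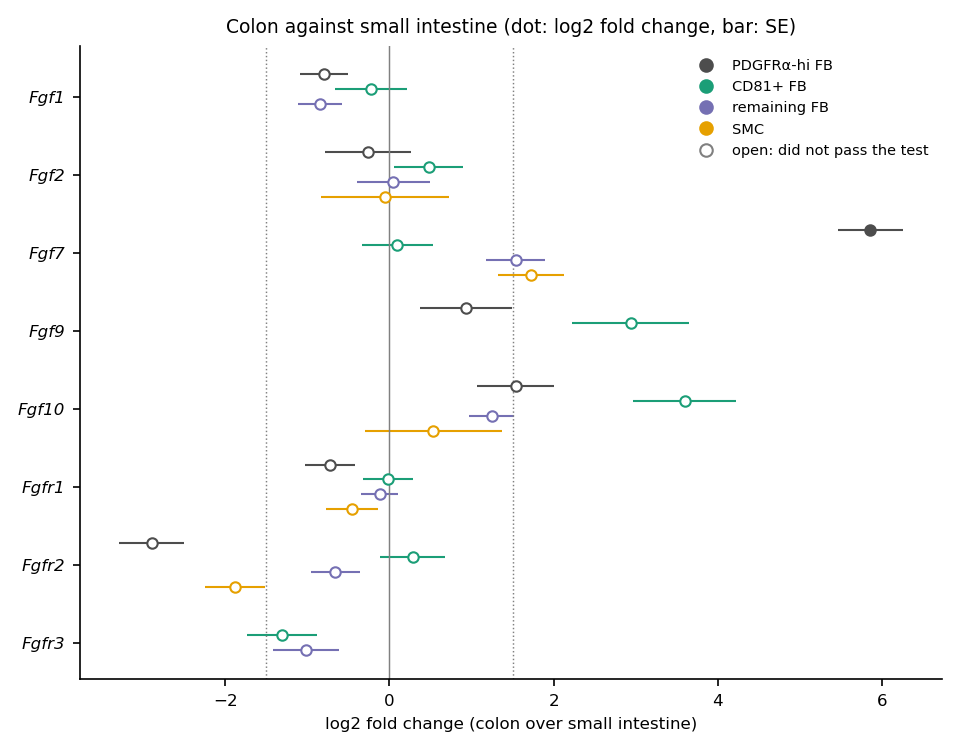
Log2 fold change of each FGF gene between colon and small intestine in 4 classes (dots; bars are SE; dotted lines mark a log2 fold change of 1.5 either way), filled where the call passed; a gene under the low-count filter in a class has no dot. Fgf7 in PDGFRα-hi FB (5.85) was the 1 filled dot, and Fgfr2 in the same class (-2.90) was the lowest.

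UMIs of Fgf10 and Fgfr2 were found in the same remaining FB. Of the remaining FB with an Fgf10 UMI, 73.3%, 51.7%, 69.2% and 32.2% also had an Fgfr2 UMI in small intestine 1 and 2 and colon 1 and 2, against 61.0%, 35.8%, 60.0% and 28.4% of those without one. The Fgf10 cells were deeper in each library (a median of 8994 against 7899 UMIs in the small intestinal libraries 1, and 2948 against 2770 in small intestine 2), and no test was made over cells. In colonic PDGFRα-hi FB 4.40% and 1.64% of the cells with an Fgf7 UMI had an Fgfr2 UMI, against 9.21% and 3.17% of those without, although the Fgf7 cells were the deeper ones (12888 against 9859 and 5213 against 3793 median UMIs).

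Of the 54 other genes of the pathway, a fixed list of ligands, receptors, heparan sulfate carriers, adaptors, inhibitors and targets, none passed between the intestines in any class (of 29 tested in PDGFRα-hi FB, 30 in CD81+ FB, 34 in remaining FB, 22 in SMC and 16 in pericytes), with medians of -0.14, -0.05, 0.03, -0.36 and -0.19 on the log2 scale against medians of 0.01, -0.01, 0.01, 0.00 and 0.01 over all tested genes. In the same order of classes 1.22%, 0.394%, 0.572%, 0.469% and 0% of all tested genes passed. At an unadjusted p under 0.05 edgeR had 5, 5, 9, 6 and 0 of the pathway genes. Over all genes it had 1362 of 11570, 974 of 11172, 1328 of 12402, 850 of 9160 and 136 of 5143. Between FB classes 18 of 35 passed in PDGFRα-hi FB (8 higher, 10 lower), 18 of 35 in CD81+ FB (9 each way) and 4 of 35 in remaining FB (3 higher, 1 lower), beside 37.9%, 30.2% and 8.34% of all genes.

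Of the 13 tested targets and inhibitors of FGF signalling on this list, 7 were higher in PDGFRα-hi FB and 2 lower, with a median of 0.55 on the log2 scale against 0.01 over all tested genes. The 2 lower ones were Flrt2 and Flrt3, at log2 differences of -4.19 (SE 0.37) and -3.98 (SE 0.43), the largest changes of the 13. Spry1 was at 269.6 and 237 CPM in small intestinal and at 281 and 223 CPM in colonic PDGFRα-hi FB, against 11.7, 17.4, 79.3 and 52.1 CPM in CD81+ FB (log2 difference in PDGFRα-hi FB 1.74, SE 0.29, adjusted p = 0.00262, edgeR). Dusp6, a phosphatase of ERK, was higher there as well (1.07, SE 0.22, adjusted p = 0.00557, edgeR), at 58.6, 79.0, 113 and 59.7 CPM against 9.90, 13.9, 56.8 and 35.2 CPM in CD81+ FB. The transcription factor gene Etv4 was at 1.52 to 5.47 CPM in PDGFRα-hi FB and at 0 to 1.08 CPM in CD81+ FB (2.36, SE 0.42, adjusted p = 0.00122, edgeR). These fitted differences are against the mean of CD81+ and remaining FB, while the levels set beside them are of CD81+ FB alone. Spry1, Dusp6 and Etv4 were also called lower in CD81+ FB, where 7 of the 13 were lower and 2 higher. In remaining FB 1 of the 13 was called, Spry2, which was lower. Spry1 and Dusp6 are also induced by other growth factors, and the ligand behind their level was not measured.

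Flrt2 and Flrt3 code for membrane proteins that bind FGF receptors. They were at 49.1 to 75.5 CPM and 28.4 to 36.4 CPM in CD81+ FB and at 0.171 to 3.94 CPM and 0 to 2.95 CPM in PDGFRα-hi FB (log2 differences in CD81+ FB 4.39, SE 0.25, and 4.19, SE 0.29, adjusted p = 3.87e-06 and 9.98e-06, edgeR). The glypican gene Gpc3 was at 175 to 359 CPM in CD81+ FB and at 2.05 to 18.7 CPM in PDGFRα-hi FB (3.89, SE 0.33, adjusted p = 1.27e-04, edgeR). Of the other ligands, Fgf18 was at 1.80, 4.54, 3.22 and 23.0 CPM in CD81+ FB and at most at 1.29 CPM in the other FB classes (3.84, SE 0.41, adjusted p = 6.96e-05, edgeR). Fgf23, the hormone of phosphate balance, had 0 UMIs in PDGFRα-hi FB of every library and 0.403 to 8.10 CPM in CD81+ FB. Fgfr4 was the receptor gene of the list that passed in remaining FB, at 4.504, 3.24, 13.9 and 9.22 CPM (3.87, SE 0.40, adjusted p = 4.25e-04, edgeR).

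The class by intestine terms called 6 of 33 (against remaining FB) and 8 of 32 (against CD81+ FB) of these genes, beside 7.04% and 7.57% of all genes. Relative to remaining FB, PDGFRα-hi FB differed most in the syndecan gene Sdc3 (-2.14, SE 0.20, adjusted p = 3.51e-06, edgeR), at 34.3 and 43.6 CPM in the small intestinal libraries and 17.6 and 13.6 CPM in colon, while remaining FB went from 36.0 and 35.8 CPM to 73.3 and 60.5 CPM. Relative to CD81+ FB 3 of the 8 called terms were higher and 5 lower. The largest were, in order of size, those of Flrt2, Sdc4, Spry1, Gpc3, Dusp5 and Dusp6. Among them were Spry1 (-1.80, SE 0.24, adjusted p = 1.19e-04) and Dusp6 (-1.40, SE 0.23, adjusted p = 0.00101, edgeR). Against remaining FB, where 2 of 6 were higher and 4 lower, Spry1 and Dusp6 were also called. Both were higher in the colonic than in the small intestinal CD81+ FB libraries, and both overlapped between the intestines in PDGFRα-hi FB. Colon 1, whose CD81+ FB carried the remaining-FB markers at 1658 CPM, was the higher of the colonic libraries for both genes, and the part of those markers was not tested.

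As a description of pattern, the gene whose level over the 20 sums (5 classes in 4 libraries) ran most like that of Fgf7 was Pdlim4 (Pearson r = 0.86 of log2(CPM + 1)). For Fgf9 it was Hmgcs1 (r = 0.92), for Fgf10 Hpse (0.83), for Fgfr1 Dpt (0.92), for Fgfr2 Dnmt3l (0.86), for Fgf1 Ifit1 (0.83) and for Fgf2 Dnajc25 (0.87), the highest of 8706 genes each. The 20 sums share libraries and depth, and Fgfr3 was too low for this comparison.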

How the data were processed

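The authors aligned reads to mm10 and deposited UMI counts per gene and cell, made with Cell Ranger 3.0.2 (first replicates) and 3.1.0 (second), per the file headers; 3′ or 5′ chemistry is not given per library, so kit and replicate number cannot be told apart, and each intestine has 1 library of each version. Replicates are separate experiments of pooled mice. Barcodes were kept with at least 500 genes, 1000 UMIs and at most 10% mitochondrial UMIs (92.1%), and 1519 with a scrublet score over 0.2 were removed as doublets. Classes were set by mean z scores of marker lists, with a scoring rule chosen after seeing the data. Members and lists were chosen with earlier results of these data known; the rule names all 8 members, up to 6 called pathway genes per comparison and the gene most alike in pattern. UMIs were summed per class and library and tested with edgeR 4.0.16 (quasi-likelihood, Benjamini-Hochberg, R 4.3.3), with DESeq2 1.42.0 as an alternative. Class and interaction fits had library as a term. Sub-gates require 1 UMI of a marker and, since the study drew them from these cells, are described only. In simulated data 97% (intestine, PDGFRα-hi FB, 11436 genes), 100% (class, 12237 genes) and 62.5% (interaction, 12057 genes) of genes changed by 2 on the log2 scale were recovered. Counting intervals are 95% and cover counting error only. Differences on the plain CPM scale were added after seeing the data. Scanpy 1.11.5 was used.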

Additional observations from a re-analysis of the deposited data

Results flagged for a closer look

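In all, 6 class by intestine terms, which test whether the difference between colon and small intestine differs between FB classes, passed among the members, 3 of 8 in each comparison, beside 7.04% of all genes against remaining FB and 7.57% against CD81+ FB. Against remaining FB these were Fgf7 (4.12 on the log2 scale), Fgfr1 (-0.59) and Fgfr2 (-2.21) in PDGFRα-hi FB. Against CD81+ FB they were Fgf7 (5.64), Fgf9 (-2.06) and Fgfr2 (-3.14). Both Fgf7 terms were called in each of 11 alternatives. The Fgfr2 terms were -0.0046 and -0.43 with clusters in place of the gate and were not called, and the calls of Fgfr1 and Fgf9 were lost in 4 and 2 of 11 alternatives.

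Cells outside the stromal classes, which the comparisons do not use, also had more than 3 UMIs of some members in libraries with at least 20 such cells. In endothelial cells Fgf1 was at 4.66 CPM in small intestine 1 and 13.7 in colon 1, and Fgfr1 at 69.8, 54.9 and 44.1 CPM in small intestine 1, colon 1 and colon 2. Fgfr2 was at 4.84 CPM in those of colon 1, and Fgfr3 at 11.6 and 8.07 CPM in small intestine 1 and colon 1. In immune cells of small intestine 1 Fgfr1 was at 44.0 and Fgfr2 at 16.0 CPM, and in those of small intestine 2 Fgf1 was at 63.9, Fgfr1 at 205 and Fgfr2 at 102 CPM. Immune cells of colon 1 had Fgf7 at 36.7, Fgf10 at 82.5, Fgfr1 at 94.7 and Fgfr2 at 119 CPM. Interstitial cells of Cajal of colon 2 had Fgf1 at 43.0, Fgf2 at 35.8, Fgfr1 at 229 and Fgfr2 at 78.8 CPM. The 6 general FB markers summed to 4473 to 25625 CPM in the immune cells, to at most 1456 CPM in the endothelial cells and to 688 to 4089 CPM in the interstitial cells, and their part in these values was not tested.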

How the results depend on the processing

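With 2 libraries per intestine the calls between the intestines moved with the fit. In PDGFRα-hi FB 1 member passed; 2 passed with RLE size factors, without the low-count filter, with DESeq2, with clusters and with a replicate block, and 0 to 2 without 1 library. In CD81+ FB none passed in the main fit, 2 without the filter, with DESeq2 and with the block, 1 with clusters and 0 to 2 without 1 library. In remaining FB 1 passed with DESeq2 and with the block, and in SMC 2 without the filter and with the block, 1 with DESeq2 and with clusters and 0 to 1 without 1 library. The replicate numbers are shared by the intestines but not stated to pair them, with 2 pairs only; same-numbered deviations correlated at 0.57 to 0.76 over 5 classes, and with the block 850 genes were called in PDGFRα-hi FB, against 141. Over all genes the calls ranged from 0 to 424 without 1 library and from 116 to 850 otherwise in PDGFRα-hi FB, from 3 to 188 and 29 to 401 in CD81+ FB (44), from 12 to 172 and 60 to 689 in remaining FB (71), from 127 to 208 and 18 to 424 in SMC (43), and from 0 to 10 and 0 to 31 in pericytes (0). Between classes, 3 to 6 members passed in PDGFRα-hi FB without 1 library, where 3501 to 3979 of 11839 to 12651 tested genes were called. In CD81+ FB 7 members passed with the small intestine alone, where 3315 of 11405 tested genes did. In remaining FB 2 to 3 members passed without 1 library. Genes called there ranged from 406 to 733 without 1 library and from 956 to 1867 otherwise (1057). Class by intestine calls against remaining FB fell to 1 member with doublets kept, and those against CD81+ FB rose to 5 without the filter; genes called ranged from 490 to 1477 (874) and from 386 to 1453 (920). Fgf7 reversed between classes, at -2.93 in PDGFRα-hi FB with the small intestine alone and at -0.70 in CD81+ FB with the colon alone. The cause was not tested beyond each alternative's own construction. Mean levels stayed within 1 SD in 272 of 320 alternatives. Values on under 10 UMIs in a library are limited by depth, among them Fgf7 and Fgf10 in PDGFRα-hi FB and Fgf9 and Fgf10 in CD81+ FB of small intestine 1, Fgfr3 in PDGFRα-hi FB, and Fgf1 (small intestine 2), Fgf2, Fgf9 and Fgf10 in small intestinal SMC.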
